A study of Homo sapiens with 3 samples.

Results

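The promoters described here carried a high chromatin immunoprecipitation signal for both PAF1 and PHF5A in SW1990 cells. They are the promoter windows on chromosomes 1 to 22 with a signal of 12 or more in each of the libraries, without 398 windows of the major histocompatibility region of chromosome 6, which begin between 28523925 and 33453908. The set was thus chosen by the measured signal of both libraries. The rule found 524 windows, 0.926% of the 56580 windows on those chromosomes outside the excluded stretch and 0.872% of all 60123 windows in the table. A window runs 2000 bp upstream to 500 bp downstream of an annotated gene start in hg38. Their height is therefore a description, and no test is attached to it.

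SW1990 is an established human pancreatic ductal adenocarcinoma line, and the cells were a population labelled SP. Every library came from these cells after fixation with EGS, a longer protein crosslinker (1.5 mM), beside formaldehyde (0.4%), and no treatment or genotype differed between libraries. PAF1 was precipitated in 1 library (titled PD2, another name of the protein) and PHF5A in another (spelled Pkf5a in its title), while the remaining library of the 3 is titled input. The protocol and design text name IgG as the control instead, and that library was not analysed here. By its title, the series asks how PAF1 promotes stemness in pancreatic cancer together with PHF5A and the RNA helicase DDX3. With 1 library per antibody, no measurement was repeated in another library. Each ± is a standard error of counting within a single library, scaled by an average dispersion that was not checked at high signal. How much of a window's signal input chromatin would carry was not tested.

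PAF1 is the namesake subunit of an elongation complex that travels with RNA polymerase II and is needed for several histone marks of transcribed chromatin. PHF5A is a small zinc finger protein of SF3b, the part of the U2 small nuclear ribonucleoprotein that recognises the branch point of introns during splicing. Chromatin immunoprecipitation reads where such proteins, or proteins crosslinked to them, lie on DNA. Signal at a promoter gives no measure of the gene's transcript.

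The annotated starts behind the highest windows differed in sequence. RefSeq promoters (250 bases before to 50 after the start, GRCh38.p14) are printed for high protein-coding windows, a long noncoding RNA, and windows that stood far above their surroundings, with CpG dinucleotides in capitals. C2CD3 (chr11:74170953-74171252, minus strand) had the highest lower signal of the protein-coding windows, and MC3R (chr20:56248482-56248781, plus strand) and GOSR1 (chr17:30477158-30477457, plus strand) were also among the 10 highest.
C2CD3: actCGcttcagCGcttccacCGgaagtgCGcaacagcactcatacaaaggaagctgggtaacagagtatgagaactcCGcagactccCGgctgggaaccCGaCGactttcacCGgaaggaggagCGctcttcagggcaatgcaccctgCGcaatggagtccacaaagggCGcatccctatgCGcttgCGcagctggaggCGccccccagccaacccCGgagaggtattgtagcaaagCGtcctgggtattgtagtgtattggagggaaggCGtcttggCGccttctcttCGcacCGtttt
MC3R: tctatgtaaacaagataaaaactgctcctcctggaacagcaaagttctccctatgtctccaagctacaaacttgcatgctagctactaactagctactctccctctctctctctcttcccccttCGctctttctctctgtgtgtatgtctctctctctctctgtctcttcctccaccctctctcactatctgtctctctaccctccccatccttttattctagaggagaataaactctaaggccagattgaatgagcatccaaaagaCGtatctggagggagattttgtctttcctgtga
GOSR1: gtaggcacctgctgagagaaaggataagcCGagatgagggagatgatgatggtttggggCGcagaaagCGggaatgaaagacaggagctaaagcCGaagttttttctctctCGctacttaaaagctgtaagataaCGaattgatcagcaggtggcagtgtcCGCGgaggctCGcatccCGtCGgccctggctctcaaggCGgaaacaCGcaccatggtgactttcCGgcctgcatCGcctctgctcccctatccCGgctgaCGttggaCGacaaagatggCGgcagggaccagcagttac
C2CD3 held 21 CpG dinucleotides, GOSR1 19 and MC3R 2, against a median of 14 over 35116 RefSeq promoters of the same length. Their GC shares were 58.7% for C2CD3, 55.7% for GOSR1 and 45% for MC3R, and the median promoter had 58.7%. Over the 13052 tested windows that hold a RefSeq promoter sequence, the medians were 22 CpG dinucleotides and 62.7% GC. None of these 3 promoters held TATAAA or GGGCGG on either strand. Of the 35116 RefSeq promoters, 11.5% and 45% held them, and of the 13052 tested windows with a sequence, 9.88% and 57.9%.

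LINC00411 (chr13:100944315-100944614, minus strand) was the highest window of a named long noncoding RNA. CALY (chr10:133336847-133337146, minus strand) and ITGA10 (chr1:145910001-145910300, minus strand) were the protein-coding windows of the set that stood highest above their neighbours. PAF1 itself (chr19:39391057-39391356, minus strand) is printed as a promoter outside the set.
LINC00411: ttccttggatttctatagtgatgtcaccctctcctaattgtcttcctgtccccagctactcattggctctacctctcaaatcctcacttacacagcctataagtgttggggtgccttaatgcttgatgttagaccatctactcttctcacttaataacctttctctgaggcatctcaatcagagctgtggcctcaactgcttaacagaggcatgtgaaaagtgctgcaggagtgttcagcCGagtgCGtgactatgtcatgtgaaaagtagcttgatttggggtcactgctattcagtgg
CALY: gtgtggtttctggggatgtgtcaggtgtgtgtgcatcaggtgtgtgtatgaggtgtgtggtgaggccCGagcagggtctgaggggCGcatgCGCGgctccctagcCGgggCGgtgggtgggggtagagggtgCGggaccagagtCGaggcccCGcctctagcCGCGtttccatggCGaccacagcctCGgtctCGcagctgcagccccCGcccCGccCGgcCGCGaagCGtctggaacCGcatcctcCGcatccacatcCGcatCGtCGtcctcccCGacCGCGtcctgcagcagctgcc
ITGA10: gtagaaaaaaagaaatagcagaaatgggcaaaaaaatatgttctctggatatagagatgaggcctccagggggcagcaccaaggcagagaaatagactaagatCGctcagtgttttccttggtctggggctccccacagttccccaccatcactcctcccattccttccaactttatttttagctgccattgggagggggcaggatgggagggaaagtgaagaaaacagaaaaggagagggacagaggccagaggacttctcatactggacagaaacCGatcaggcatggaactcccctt
PAF1: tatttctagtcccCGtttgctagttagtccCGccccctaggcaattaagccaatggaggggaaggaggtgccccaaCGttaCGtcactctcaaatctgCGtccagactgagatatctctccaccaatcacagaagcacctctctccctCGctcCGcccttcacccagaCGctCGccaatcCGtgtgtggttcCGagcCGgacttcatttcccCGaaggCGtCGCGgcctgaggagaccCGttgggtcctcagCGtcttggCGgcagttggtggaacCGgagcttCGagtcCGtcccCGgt
CALY was GC-rich at 69.0% with 28 CpG dinucleotides and 2 matches to GGGCGG, counted on both strands without overlap, while LINC00411 and ITGA10 each held 2 CpG dinucleotides at 45.7% and 48.7% GC. CCAAT, which 34.6% of all promoters held on either strand, occurred once in C2CD3, LINC00411 and ITGA10 and 3 times in PAF1. These matches are descriptions of the printed windows. A comparison of base composition over the whole set is void, because a RefSeq promoter sequence lay within the window of only 82 of the 524 windows (15.6%). Those 82 had medians of 4 CpG dinucleotides and 53% GC, against 22 and 62.7% over the 13052 tested windows with a sequence (23.1%). For protein-coding windows alone, the medians were 6 and 54.3% in the set, against 23 and 63.3% for the others.

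The highest small RNA window was that of MIR570, a microRNA gene on chromosome 3, whose mature products lie at chr3:195699425-195699446 and chr3:195699460-195699481 on the plus strand. They are printed from RefSeq with the seed, bases 2 to 8, in capitals.
hsa-miR-570-5p: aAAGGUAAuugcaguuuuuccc
hsa-miR-570-3p: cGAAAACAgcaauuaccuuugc
The arms have different seeds. Both lie inside the MIR570 window, downstream of the annotated gene start.

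The signal of the 524 windows ran up to the top of each library. PAF1 signal had a median of 14.5 with a highest value of 27.2, and PHF5A signal had a median of 14.1 with a highest value of 29.4, against medians of 4.22 and 4.35 over all windows on these chromosomes. At 12 or more in a single library there were 1038 windows for PAF1 (1.83% of those tested) and 880 for PHF5A (1.56%), so the shared windows made up 50.5% of the PAF1 list and 59.5% of the PHF5A list. These shares restate the rule and show only how far the lists coincided. The median counting error of a window was 1.89 for PAF1 and 1.87 for PHF5A, larger than the distance of many windows from 12, since 197 of the 524 were under 13 in their lower library. At 15 or more in both libraries there were 127 windows, and at 20 or more 12.

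**Figure D1:**
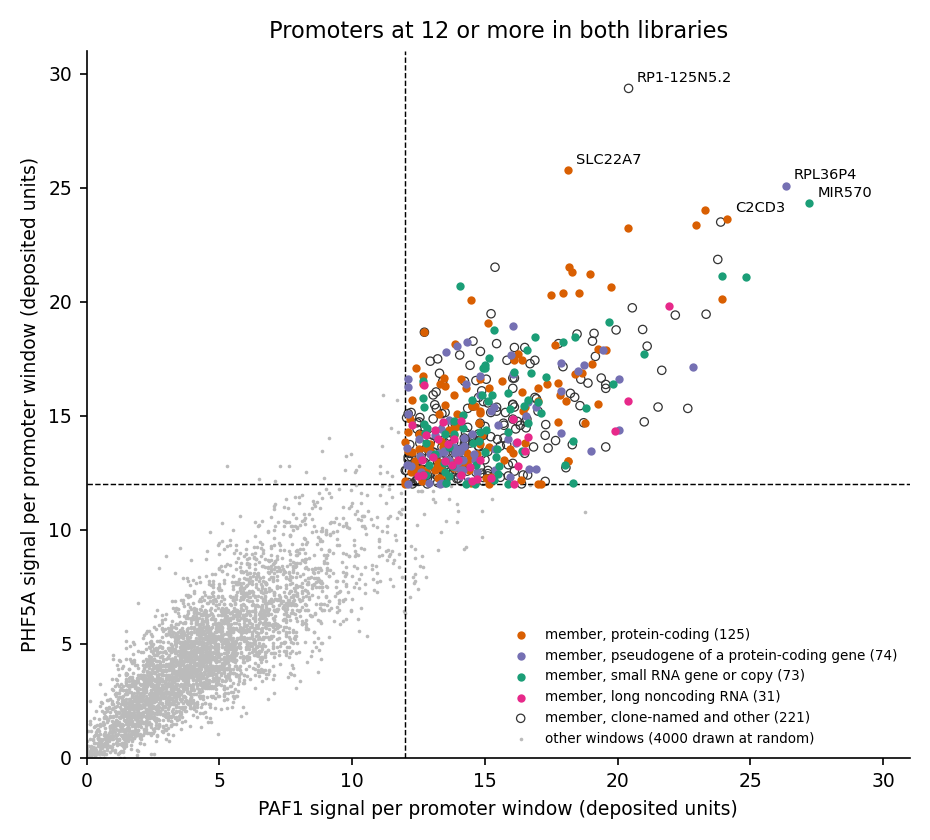
PHF5A signal per promoter window (y axis, deposited units) is plotted against PAF1 signal (x axis, deposited units), with 1 point per window, the 524 windows of the set coloured by gene class and a random draw of the other windows in grey. Dashed lines mark 12 in each library, and most coloured points lie just past both lines, with MIR570, RPL36P4 and C2CD3 among the points far from them.

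On either side of the threshold the values ran on without a gap. The windows just inside were those of GTSF1, a germline protein that works with piRNAs, at 12 for PAF1 and 12.01 for PHF5A, CST11, a cystatin gene, at 12 and 13.8, and the clone-named RP11-690D19.3 at 12 and 12.6. Just outside lay MMP14, the membrane-anchored matrix metallopeptidase, at 13.2 and 11.96, with RP11-660M18.1 at 12.6 and 11.96 and CTD-2540L5.9 at 12.8 and 11.96. Each of these differed from 12 in its lower library by far less than its counting error of 1.70 to 1.75.

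Among protein-coding genes, C2CD3, which encodes a centriole protein needed for primary cilia, had a PAF1 signal of 24.1 ± 2.41 and a PHF5A signal of 23.6 ± 2.39. Its window (ENSG00000168014, chr11:74170710-74173210) stood 3.27-fold over the median of windows within 1 Mb for PAF1 and 3.09-fold for PHF5A. MC3R, the melanocortin receptor with a role in energy balance (ENSG00000124089, chr20:56246732-56249232), had 23.3 ± 2.43 for PAF1 and 24.0 ± 2.48 for PHF5A. The values of C2CD3 and MC3R lay within a counting error of each other in both libraries.

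SNX32, a sorting nexin of endosomal traffic (ENSG00000172803, chr11:65831641-65834141), combined a high signal with low surroundings. It had 22.9 ± 2.35 for PAF1 and 23.4 ± 2.38 for PHF5A, where the windows within 1 Mb had medians of 3.88 and 4.08, which gave folds of 5.91 and 5.73. FOLR3, a secreted folate receptor (chr11:72112869-72115369), had 20.4 ± 2.21 and 23.3 ± 2.37 with folds of 3.99 and 4.23. With neighbours taken within 250 kb, the lower fold of FOLR3 came to 2.52 and that of SNX32 to 7.45.

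GOSR1, a Golgi SNARE (chr17:30475362-30477862), had 23.9 ± 2.47 for PAF1 and 20.1 ± 2.27 for PHF5A, with folds of 4.27 and 3.10. WFDC11, a small secreted protein with a whey acidic protein domain (chr20:45669770-45672270), had 19.8 ± 2.24 and 20.7 ± 2.30, but its surroundings were high too, and its folds were 2.27 and 2.26. GGT7, of the gamma-glutamyltransferase family (chr20:34872360-34874860), had 18.9 ± 2.13 and 21.2 ± 2.27, with folds of 2.40 and 2.43. The folds of WFDC11 and GGT7 on chromosome 20 were thus lower than that of GOSR1 in both libraries.

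The remaining members of the 10 highest protein-coding windows were TMEM114, AMN and FAIM3. TMEM114, a transmembrane protein (chr16:8589693-8592193), had 18.6 ± 2.11 for PAF1 and 20.4 ± 2.22 for PHF5A. AMN, the partner of cubilin in vitamin B12 uptake (chr14:102920656-102923156), had 18.3 ± 2.10 and 21.3 ± 2.27 with folds of 4.51 and 4.45. FAIM3, now known as the Fc receptor for IgM (chr1:206922747-206925247), had 18.2 ± 2.09 and 21.5 ± 2.28. In all 3 PHF5A was the higher value by less than the sum of the counting errors.

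Of the windows outside protein-coding genes, RPL36P4, a pseudogene of ribosomal protein L36 (chr20:35544247-35546747), had the highest lower signal at 26.3 ± 2.52 for PAF1 and 25.1 ± 2.46 for PHF5A. MIR570 (ENSG00000207650, chr3:195697401-195699901) had 27.2 ± 2.56 and 24.3 ± 2.43 with folds of 5.28 and 5.14, and its PAF1 signal was the highest of the 524. RN7SKP173, a copy of the 7SK RNA gene (chr20:38759528-38762028), had 23.9 ± 2.40 and 21.1 ± 2.26. SNORA26, annotated as a small nucleolar RNA (chr20:41712100-41714600), had 24.8 ± 2.44 and 21.1 ± 2.26. RPL36P4, RN7SKP173 and SNORA26 all lie on chromosome 20, where the neighbouring windows were high as well, and their lower folds were 2.91, 2.28 and 2.07.

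LINC00411 (chr13:100943864-100946364) had 21.9 ± 2.36 for PAF1 and 19.8 ± 2.25 for PHF5A, 3.59-fold and 3.45-fold over its surroundings. The other 5 of the 10 highest windows outside protein-coding genes carried clone-based names with no description in the deposited table. Of these, AL132772.1 had 23.9 and 23.5, RP11-578C11.2 had 23.8 and 21.9, and RP11-550I24.3 had 23.3 and 19.5. RP11-19G24.2 had 20.6 and 19.7, and its lower fold of 4.59 came to 2.40 with neighbours within 250 kb and 2.94 within 5 Mb. RP1-125N5.2 (chr6:168714606-168717106) had 20.4 ± 2.28 for PAF1 and 29.4 ± 2.74 for PHF5A, the highest PHF5A value of the set.

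By gene class, the 524 windows comprised 214 clone-named windows with no description (40.8%), 125 of protein-coding genes (23.9%), 74 of pseudogenes of protein-coding genes (14.1%), 73 of small RNA genes or their copies (13.9%) and 31 of long noncoding RNAs (5.92%). The remaining 7 were 5 described genes with no RefSeq type and 2 antigen receptor segments. Protein-coding genes thus held 23.9% of the set and 32.1% of all windows tested, and 0.688% of protein-coding windows were in the set. The share was 1.20% of pseudogene windows, 1.22% of long noncoding RNA windows and 1.06% of small RNA windows, all set against the background of 0.926%. Clone-named windows with no description made up 38.5% of all windows tested, and 0.983% of them were in the set, near that background. Over all tested windows, protein-coding windows also had the lower medians, 3.66 for PAF1 and 3.96 for PHF5A, against 4.61 and 4.63 for pseudogenes. Counting each joined region once gave 23.2% protein-coding windows, and taking classes from symbols alone gave 25%.

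Named gene families contributed unevenly, beside a share of 0.926% over all tested windows. These families were picked after the values were seen, so their counts describe and support nothing. Of 18 windows of WAP four-disulfide core genes and EPPIN, which encode small secreted protease inhibitors and related proteins, 8 were in the set (44.4%), all on chromosome 20. Besides WFDC11 they were EPPIN, EPPIN-WFDC6, WFDC6, WFDC8, WFDC9, WFDC10A and WFDC10B, with PAF1 signals of 13.8 to 19.8 and PHF5A signals of 13.3 to 20.7. Their lower folds were only 1.46 to 2.26, so the surrounding windows were high as well. The neighbours included other windows of the set, and without these the lower fold of WFDC11 came to 2.66.

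Beta-defensins, antimicrobial peptides of epithelia, gave 5 of 40 windows (12.5%), namely DEFB116, DEFB119, DEFB121, DEFB122 and DEFB124. All 5 lie in 1 cluster on chromosome 20, with lower folds of 1.47 to 2.18, while the median beta-defensin window had 4.23 for PAF1 and 3.76 for PHF5A. Matrix metallopeptidases, which cleave extracellular matrix, gave 4 of 24 windows (16.7%). The background share for both families was 0.926%. MMP24 on chromosome 20 had 16.1 and 17.5, and MMP3, MMP8 and MMP27, neighbours on chromosome 11, had PAF1 signals of 13.2, 13.5 and 17.8 and PHF5A signals of 12.8, 16.3 and 15.9.

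Butyrophilins, immunoglobulin-like membrane proteins, gave BTN2A2 and BTN3A2 among 10 windows outside the excluded stretch of chromosome 6. Kallikreins, secreted serine proteases, gave KLK4 and KLK12 among 17, and keratins gave KRT28 and both windows of KRT222 among 67. Olfactory receptors, a large family of odorant sensors, gave 7 of 842 windows (0.831%), and genes with ZNF symbols gave 2 of 545 (0.367%). The olfactory receptor share lay near the background of 0.926%, and the ZNF share was lower, on a count of only 2.

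Copies of small RNA genes and of mitochondrial genes were also present. Mitochondrial gene copies in the nuclear genome gave 10 of 156 windows (6.41%), 5S ribosomal RNA copies 14 of 487 (2.87%) and ribosomal protein pseudogenes 16 of 777 (2.06%). These counts go by symbol and leave out clone-named windows of the set that overlap mitochondrial copies, such as CTB-36O1.7 over MTND6P4. Copies of 7SL RNA, the signal recognition particle RNA, gave 9 of 567 (1.59%), 7SK copies 3 of 287 (1.05%), U6 copies 10 of 1244 (0.804%) and Y RNA copies 5 of 768 (0.651%). The labels do not say how reads from near-identical copies were placed, so the values of single copies are uncertain.

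**Figure D2:**
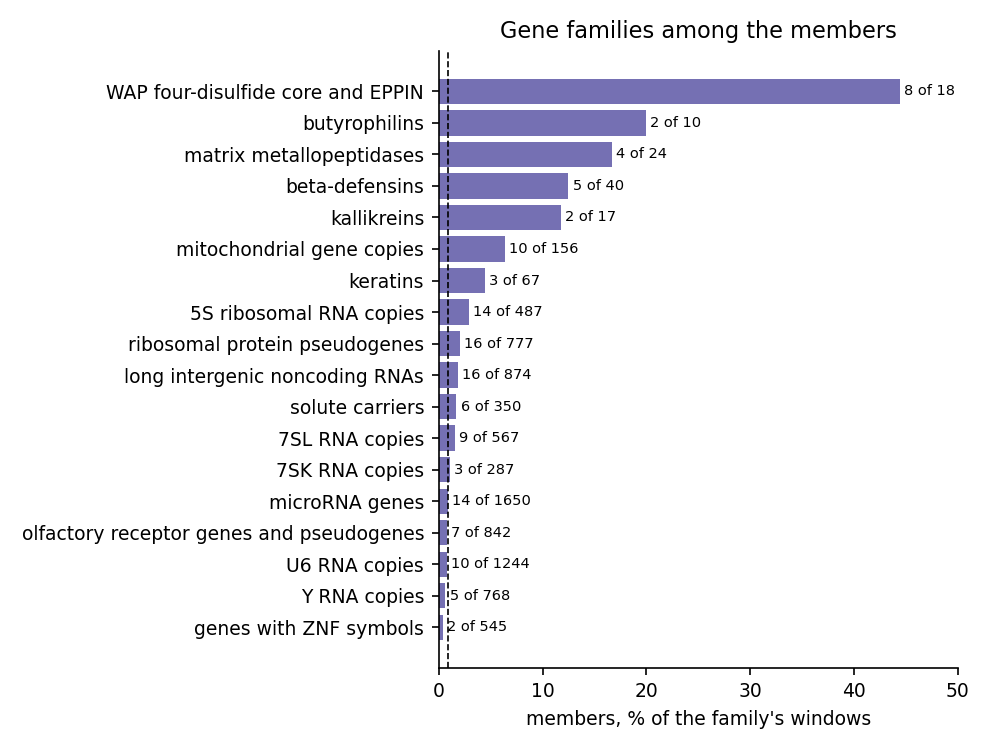
Bars give the share of each family's windows that were in the set (x axis, percent), with the number of windows beside each bar and families ordered by share down the page. The dashed line is the share over all tested windows, 0.926%, and WAP four-disulfide core genes stand highest at 44.4% on only 18 windows.

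MicroRNA genes gave 14 of 1650 windows (0.848%), a share near the background. After MIR570, the highest by the lower signal was MIR4324 on chromosome 19 at 16.7 for PAF1 and 16.9 for PHF5A, 4.18-fold and 4.23-fold over its surroundings. MIR379, the first microRNA of a large imprinted cluster on chromosome 14, had 15 and 13.4. Its neighbour MIR411 overlaps that window but reached only 4.27 for PAF1 and 5.03 for PHF5A. MIR5586 on chromosome 14 had the second highest PAF1 signal of these genes, 18.3, with 13.9 for PHF5A.

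Long intergenic noncoding RNAs with LINC symbols gave 16 of 874 windows (1.83%), against 0.926% of all tested windows and 1.22% of long noncoding RNA windows. Their PAF1 signals were 12.5 to 21.9. Of the 16, 5 lie on chromosome 13, where 2.43% of all windows were in the set. Among the other named noncoding RNAs, UCA1, a transcript first described in urothelial cancer, had 20.4 for PAF1 and 15.7 for PHF5A, 2.70-fold over its surroundings in the lower library. Some antisense RNA genes were present, such as CLDN10-AS1 at 16.1 and 14.9 and NALCN-AS1 at 16.2 and 13.9, both on chromosome 13.

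Further protein-coding windows, chosen here after their values were seen, belonged to genes of varied roles. SLC45A2, a transporter of pigment cells, had 18.4 for PAF1 and 16.8 for PHF5A, and SPI1, the blood cell transcription factor PU.1, had 13.9 and 18.2. NUF2, a kinetochore protein, had 19.3 and 15.5, and BLMH, a cysteine protease that inactivates bleomycin, had 19.1 and 17.3. OSBPL2, an oxysterol-binding protein, had 14.5 and 20.1 and stood at least 4.82-fold over its surroundings on chromosome 20 in both libraries.

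Gene lists related to the study's question were read beside the set, whose background share was 0.926%, so that short lists would hold few or no windows of it. Of 27 pluripotency and stemness genes listed, 26 had a tested window, and none of these reached 12 in both libraries. Of 23 pancreatic cancer stem cell marker genes listed, 22 had a tested window, and none of these did so. Genes in the excluded stretch of chromosome 6 or on the sex chromosomes were not looked up, so nothing is said about them. By the lower signal of both libraries, the highest of the first list was ESRRB, a nuclear receptor of pluripotent cells, at 10.8 ± 1.66 for PAF1 and 9.05 ± 1.52 for PHF5A, and of the second CD44, a hyaluronan receptor, at 11.6 ± 1.67 and 11.2 ± 1.64. CD44 lay within a counting error of the threshold in both libraries. The marker gene CD9, a tetraspanin, reached 12 for PAF1 alone, at 12.1 ± 1.76, and had 8.99 ± 1.52 for PHF5A.

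The genes of the precipitated proteins and their partners held 0 windows of the set. DDX3X and DDX3Y lie on the sex chromosomes, outside the rule. Of 6 genes of the PAF1 complex, the highest by the lower signal was CDC73, a subunit also known as parafibromin, at 4.38 ± 1.03 for PAF1 and 5.86 ± 1.19 for PHF5A, 0.711-fold and 1.02-fold over its surroundings. PAF1 itself had 3.33 and 2.51, 0.951-fold and 0.719-fold over its surroundings. Of 21 U2 small nuclear ribonucleoprotein genes the highest was RBM17, a splicing factor, at 8.72 ± 1.45 and 8.49 ± 1.43, with folds of 1.98 and 1.68. The lists of 15 pancreatic duct and acinar genes, 10 genes of blood, endothelium and fibroblasts and 19 housekeeping genes also had 0 windows in the set. Their highest were PRSS1, which encodes cationic trypsinogen, at 6.94 and 9.66, VWF, von Willebrand factor, at 7.83 and 7.93, and RAB7A, a GTPase of late endosomes, at 10.16 and 7.82. A promoter signal cannot check the cell type.

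The windows were spread unevenly over the chromosomes. Chromosome 20 held 94, which was 17.9% of the set and 6.52% of that chromosome's windows. Chromosome 11 held 75 (2.23% of its windows), chromosome 14 held 52 (2.28%), chromosome 1 held 45 (0.842%), chromosome 17 held 40 (1.30%) and chromosomes 3 and 13 held 33 each (1.05% and 2.43%). Together chromosomes 1, 11, 14, 17 and 20 held 306 windows, 58.4% of the set against 27.4% of all windows tested. Chromosome 18 held 0 of 1209 windows, chromosome 15 held 1 and chromosomes 4, 9 and 21 held 2 each.

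The chromosomes with the highest shares, 20, 13, 14 and 11, also had high medians over all their windows, although chromosome 2 had 4.94 and 4.63 with a share of 0.39%. Chromosome 20 had medians of 6.05 for PAF1 and 6.53 for PHF5A and chromosome 14 had 5.94 and 6.15, while chromosome 18 had 2.38 and 2.51 and chromosome 9 had 2.82 and 2.96. The part of chromosome copy number in these medians was not tested.

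**Figure D3:**
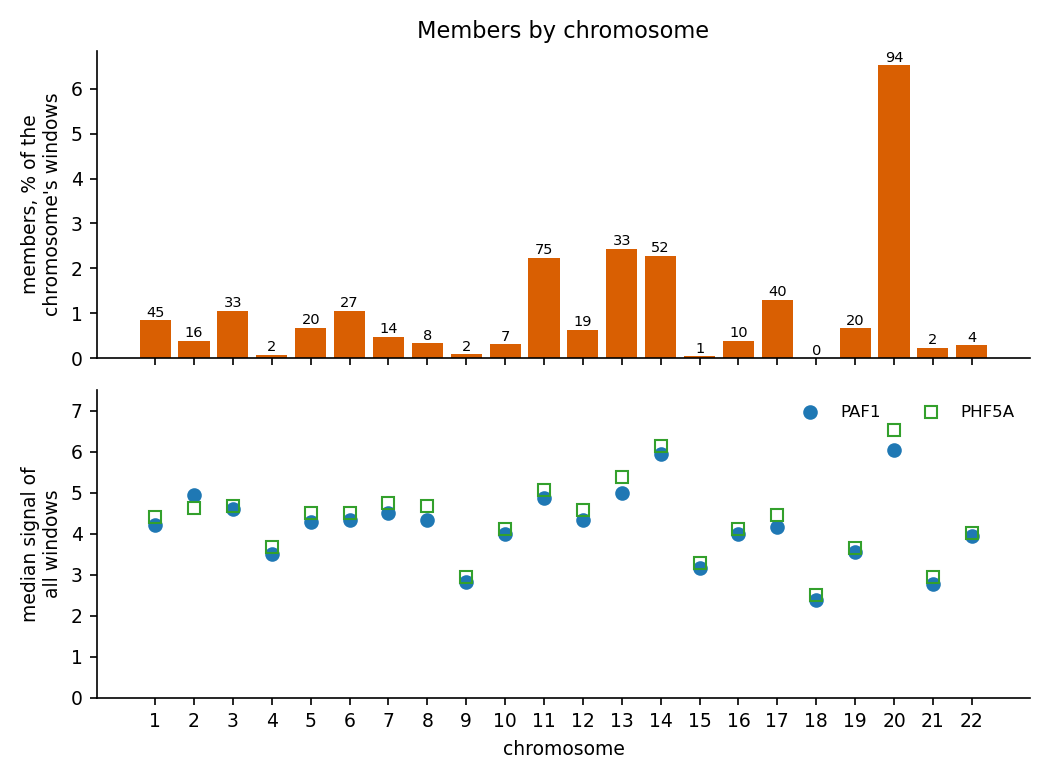
The upper panel gives the share of each chromosome's windows in the set (y axis, percent), with the number of windows above each bar, and the lower panel gives the median signal of all windows of that chromosome (y axis, deposited units) for PAF1 (filled circles) and PHF5A (open squares). Chromosome 20 stands out with 94 windows and medians of 6.05 and 6.53, and chromosome 18 has no window and the lowest medians.

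At finer scale, 335 of 2728 bins of 1 Mb held a window of the set, and 238 of these held a single one. The densest bin was 45 to 46 Mb on chromosome 20, where 16 of 63 windows were in the set and formed 12 joined regions, among them the WAP genes, SPINT5P and RNA5SP485. The median of all windows in that bin was 8.72 for PAF1 and 9.94 for PHF5A. The bin from 31 to 32 Mb on chromosome 20, with the beta-defensins, held 9, and 20 to 21 Mb on chromosome 14, with OSGEP, OR4T1P and both windows of RNASE11, held 8. There were 10 bins with 5 or more, and they held 73 of the 524.

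To separate single windows from raised neighbourhoods, each window was divided by the median of the windows centred within 1 Mb that did not overlap it. Windows of the set had neighbourhood medians of 6.16 for PAF1 and 6.5 for PHF5A, against 4.22 and 4.35 over all windows, so their surroundings were high too. Their median fold was 2.43 for PAF1 and 2.22 for PHF5A. The lower fold of both libraries had a median of 2.16 and ran between 1.24 and 26.5, against a median of 0.866 over all windows with a neighbourhood level.

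A lower fold of 2 or more was reached by 333 of 521 windows of the set (63.9%), and by 2486 of 55862 tested windows (4.45%). The rule chose windows by the same signal, so nothing is read from that difference. At 3-fold or more in both libraries there were 84 windows of the set among 640 tested windows, and at 5-fold or more 14 among 207. Under 1.5-fold in at least 1 library were 31 windows of the set, among 48639 tested windows. The highest lower fold outside the set was 61.8. A level could not be set for 3 windows, which had fewer than 10 neighbours. With neighbours within 250 kb only 353 windows had a level, and 204 of them (57.8%) reached 2-fold.

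Windows on chromosome 20 had the highest surroundings. The 94 windows there had neighbourhood medians of 8.01 and 8.22, a median lower fold of 1.73, and 30 of 94 at 2-fold or more. On chromosome 11, 36 of 75 reached 2-fold with a median lower fold of 1.96, and on chromosome 14, 29 of 50. On chromosome 1, 39 of 45 did so, and on chromosome 19 all 20 did, with surroundings of 5.29 for PAF1 and 5.31 for PHF5A. Every window of the set is at 12 or more, so lower surroundings give higher folds by the rule. Nothing is read from these differences between chromosomes. RALGAPB, a subunit of a Ral GTPase-activating complex on chromosome 20, had 15.1 and 12.3 with a lower fold of only 1.29.

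**Figure D4:**
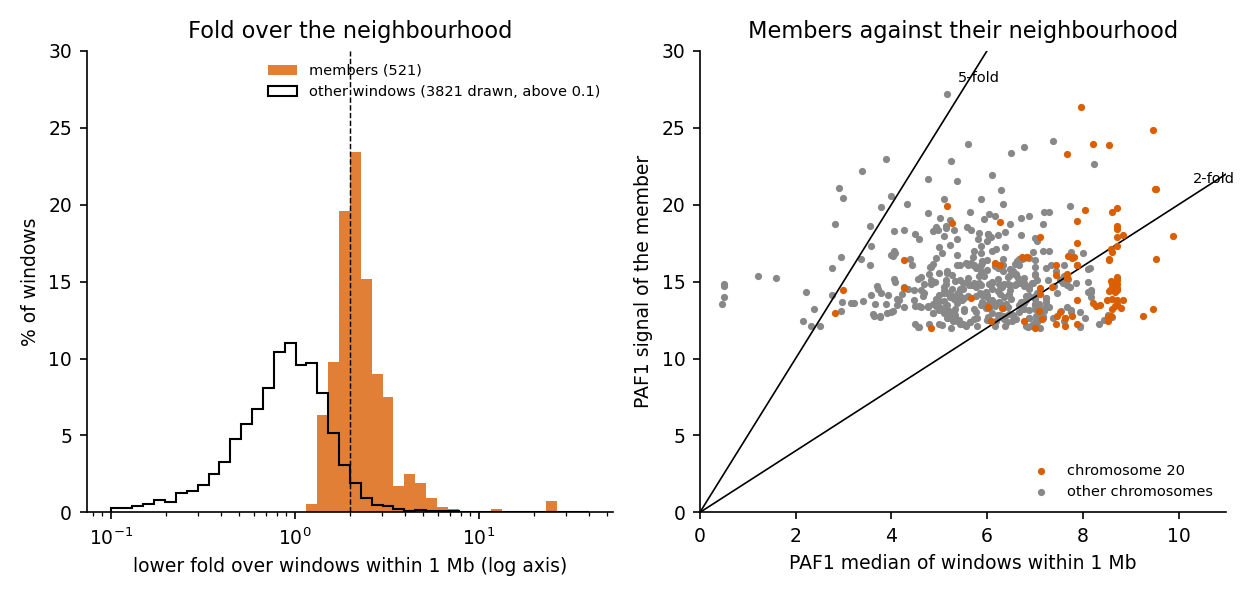
The left panel is a histogram of the lower fold over windows within 1 Mb (x axis, log scale), each group as percent of its windows shown. It holds the 521 windows of the set with a level and a random draw of other windows, without drawn windows of the very lowest folds. The right panel plots the PAF1 signal of each window of the set (y axis, deposited units) against the PAF1 median of its surroundings (x axis, deposited units), with lines at 2-fold and 5-fold; windows on chromosome 20 lie to the right, many below the 2-fold line.

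Of the 10 windows of the set that stood furthest above their surroundings, only RP1-125N5.2 and SNX32 were also among the highest by signal. CALY, a vesicle protein of neurons that binds dopamine receptors (ENSG00000130643, chr10:133336435-133338935), had 13.6 ± 1.81 for PAF1 and 13.6 ± 1.82 for PHF5A. Its 80 neighbours had medians of only 0.455 and 0.515, which gave folds of 29.8 and 26.5. These folds rest on the small denominator: the lower fold was 9.82 with neighbours within 250 kb, 9.99 within 5 Mb and 11.6 over the mean of the neighbours.

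A joined region of 3 windows near the end of the short arm of chromosome 1 had the next folds. MIR6723 (chr1:631913-634413) had 14.8 and 14.3, RP5-857K21.11 (chr1:632376-634876) had 14.7 and 14.1, and MTATP6P1, a nuclear copy of the mitochondrial ATP synthase gene ATP6 (chr1:631696-634196), had 14 and 12.96. Their surroundings had medians of 0.5 and 0.55, and their lower folds of 23.6 to 26.0 came to 13.6 to 15.1 within 5 Mb and to 10.9 to 12.1 over the mean of neighbours. MTATP6P1 overlapped a window outside the set, RP5-857K21.7, at 4.17 and 4.20. The 6 bins of MTATP6P1 outside that overlap therefore averaged at least 27.8 for PAF1 and 24.8 for PHF5A. MIR6723 and RP5-857K21.11 both overlap MTATP6P1. The uncertainty about reads of near-identical copies therefore applies to all 3 windows.

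MGC50722, an uncharacterised gene on chromosome 9 (chr9:136306401-136308901), had 15.4 ± 1.92 for PAF1 and 21.5 ± 2.28 for PHF5A with folds of 12.6 and 15.9, and its lower fold was 20 within 250 kb and 9.28 over the mean of neighbours. ITGA10, a chain of a collagen-binding integrin (chr1:145909689-145912189), had 15.2 ± 1.97 and 12.3 ± 1.78 with folds of 9.58 and 7.34. For ITGA10 the choice of neighbours decided the value, since the lower fold was 1.87 within 250 kb and 3.90 over their mean.

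RP1-125N5.2 had folds of 6.80 and 9.56. TVP23CP2, a pseudogene of a Golgi protein gene (chr16:14198357-14200857), had 14.3 and 18.2 with folds of 6.46 and 7.09, and lower folds of 3.36 within 250 kb and 3.90 within 5 Mb. CTD-3051D23.4 on chromosome 14 had 12.4 and 14.4 with folds of 5.76 and 5.98, and 2.68 within 5 Mb. SNX32, with 157 neighbours, completed these 10 windows.

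The signal of neighbouring windows was read by distance. Pairs were counted from each window of the set, so a pair within the set counts in both directions. Up to 2.5 kb neighbours share bases with the windows, and windows chosen for a high signal have lower neighbours by the choice, so the profile is a description. Windows whose centres lay within 0.5 kb of a window of the set were in the set themselves in 78.9% of 38 pairs, and they had median signals of 14 for PAF1 and 13.1 for PHF5A. The share was 43.5% at 0.5 to 1 kb, 32.4% at 1 to 1.5 kb, 23.1% at 1.5 to 2 kb and 9.76% at 2 to 2.5 kb, where windows share the fewest bases. Between 2 and 2.5 kb the medians were 8.11 and 8.16. At 5 to 10 kb they were 6.33 and 6.15, close to the 5.82 and 6.09 found at 250 to 1000 kb. Beyond the overlap the share lay between 3.69% and 8.10%, above the background of 0.926% at every distance out to 1000 kb.

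**Figure D5:**
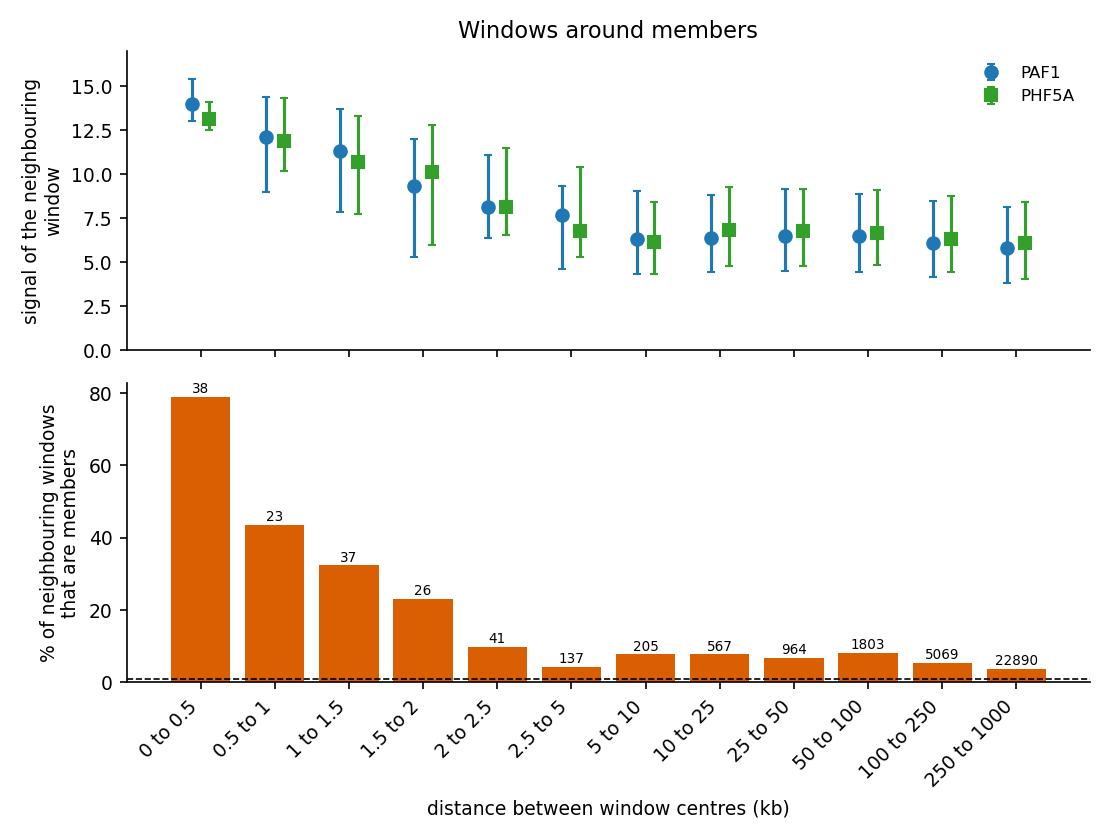
The x axis gives the distance between the centre of a window of the set and that of a neighbouring window (kb, unequal classes). The upper panel gives the neighbours' median signal with quartiles (y axis, deposited units) for PAF1 (circles) and PHF5A (squares), and the lower panel the percent of neighbours in the set with the number of pairs above each bar and a dashed line at 0.926%; the medians fall to about 6 by 5 to 10 kb.

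Because windows overlap, the 524 windows came to 495 joined regions, of which 469 were single windows, 23 held 2 windows and 3 held 3. Overlap with any window was found for 108 windows of the set (20.6%), against 27.2% of tested windows. Among the 31 overlapping pairs within the set, 15 were on the same strand and 16 on opposite strands. KCTD14 and NDUFC2, a subunit of respiratory complex I, had identical windows on chromosome 11 and so a single pair of values, 18.1 for PAF1 and 13.02 for PHF5A.

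Opposite-strand pairs included high protein-coding windows. C2CD3 overlapped PPME1, a methylesterase of protein phosphatase 2A (chr11:74169099-74171599), which had 12.6 for PAF1 and 12.7 for PHF5A. The 11 bins of C2CD3 outside PPME1 averaged at least 18.8 and 17.9, and the 7 shared bins at most 32.4 and 32.6. FOLR3 overlapped ANAPC15, a subunit of the anaphase-promoting complex, at 17.9 and 20.4, and the 2 genes shared 14 bins. GGT7 overlapped ACSS2, a synthetase of acetyl-CoA, at 17.5 and 20.3 in 3 bins, and the values do not say how the signal of that pair is divided between shared and separate bases.

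The other joined regions of 3 windows lie on chromosomes 17 and 20. RP11-846F4.12 (chr17:22524830-22527330) had 16.8 and 13.6, AC132825.1 had 15 and 13.1 and RP11-846F4.6 had 13.9 and 12.9, on almost the same bases. RP11-846F4.12 and AC132825.1 also overlap the window of MTND1P15, a mitochondrial gene copy by its symbol, so placement of reads is uncertain there too. On chromosome 20, RP3-461P17.6 (chr20:45536514-45539014) had 14.4 and 17.2, WFDC6 had 13.8 and 14.4 and HSPD1P21, a pseudogene of the HSP60 chaperonin gene, had 17.9 and 16.1. That region lies in the densest bin, and the lower folds of its 3 windows were at most 1.78. With windows of the set left out of the neighbours, the lower folds were 2.08 for RP3-461P17.6 and HSPD1P21 and 1.86 for WFDC6.

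There were also 78 windows of the set that overlapped a window outside it. The 88 distinct partners had medians of 8.41 for PAF1 and 8.88 for PHF5A. The lowest partner, a clone-named window at 2.52 and 1.71, overlapped MIR1253 (13.8 and 12.8) on chromosome 17. The 9 bins of MIR1253 outside that overlap averaged at least 22.8 for PAF1 and 22.4 for PHF5A, while the bins it shared averaged at most 4.78 and 3.24, so signal changed sharply within that window.

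The annotated start in the table was not always that of the RefSeq entry. Of 96 protein-coding windows of the set with a RefSeq promoter entry, 67 held its start (69.8%) and 29 held none (30.2%), against 18.7% without it of 14362 other protein-coding windows. The gap was over 10 kb for 12 (12.5%), against 6.89% of the others. C4BPB, a complement regulator, was 81.5 kb from its RefSeq start, FOLR3 20.4 kb and NUF2 54.9 kb, and their windows lie at the gene start given in the deposited table. Protein-coding genes of the set were 21700 bp long at the median, against 28100 bp for the others.

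PAF1 and PHF5A were close to each other in nearly every window of the set. The log2 ratio of PAF1 over PHF5A, after each library was divided by its median window, had a median of 0.10 and ran between -0.48 and 0.64, with a median counting error of 0.26. A ratio of 1.5-fold or more was reached by 2 windows for PAF1, against 10% of all tested windows, and by 0 for PHF5A, against 9.46%. The rule asks for both values and the counting error is smaller at high signal. Among the 806 windows with a mean of 12 or more, the shares were 3.47% and 0.248%. Nothing about the antibodies is read from these counts, since the rule used both values. As deposited, PAF1 was the higher value in 311 windows and PHF5A in 213.

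The largest ratios toward PAF1 were in RNA5SP339, a 5S ribosomal RNA copy on chromosome 11 (18.3 for PAF1 and 12.1 for PHF5A, log2 ratio 0.64 ± 0.25), and AP002802.1 on the same chromosome (22.6 and 15.3, 0.61 ± 0.23). RP11-512G4.1, RP1-191L6.2 and RP11-279O17.1 followed at 0.56 ± 0.24, 0.56 ± 0.24 and 0.55 ± 0.26. The 2 windows past 1.5-fold were no longer past it with a pseudocount of 2 or without scaling to the median window.

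The largest ratios toward PHF5A were in RN7SL246P, a 7SL RNA copy on chromosome 12 (14.1 for PAF1 and 20.7 for PHF5A, log2 ratio -0.48 ± 0.24), and in the nearly identical windows of TPPP2, a tubulin polymerisation-promoting family gene, and AL161668.5 on chromosome 14 (12.7 and 18.7, -0.48 ± 0.25). RP1-125N5.2 followed at -0.46 ± 0.21. SLC22A7, an organic anion transporter (chr6:43293694-43296194), had 18.1 ± 2.09 for PAF1 and 25.8 ± 2.50 for PHF5A, a log2 ratio of -0.44 ± 0.21. With 1 library per antibody, none of these ratios was repeated.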

How the data were processed

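Chromatin immunoprecipitation libraries for PAF1 and PHF5A (1 each) were read from 1 table, in which the authors deposited a mean signal per promoter window for each library. Per the submitters' processing notes, Trim Galore, Bowtie2 2.2.3, Picard, deepTools and bedtools were used with hg38; neither their settings nor the normalization of the signal is given in the sources used here. Column names were matched to sample titles by protein name (PD2 is PAF1).

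The signal equals whole numbers averaged over 150 bp bins (within 0.0051 in 100% of windows; PHF5A after division by 1.00608). Bin sums over all windows were 4810548 for PAF1 and 4891421 for PHF5A. For counting errors, a dispersion of 4.33 was taken from how 50205 non-overlapping windows split between the libraries. It holds any true difference between antibodies. It is an average over windows of all levels, was not checked at high signal and leaves out noise shared by both libraries.

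Regional levels were medians of at least 10 non-overlapping windows centred within 1 Mb. Log2 ratios used a pseudocount of 0.5. Gene classes came from RefSeq by symbol (285 windows of the set), synonym (10) or symbol pattern (229). Named windows were the 10 highest protein-coding and 10 highest other windows by the lower signal, the 10 highest by lower fold, the 5 largest ratios each way, the 3 largest joined regions and the 3 windows on each side of 12; others named were chosen after their values were seen. The members and lists were chosen with earlier results of these data known. No test between groups was made. The fold step was tested on simulated data, and the ratio step was not. Alternatives varied the threshold, chromosomes, scaling, neighbour distance, pseudocount and classes. The tools were Python 3.11.15 with numpy 2.4.6 and pandas 2.3.3, SciPy 1.17.1, and matplotlib 3.10.9 for figures.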

Additional observations from a re-analysis of the deposited data

How the results depend on the processing

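The size of the set followed its threshold: 1492 windows reached 10 in both libraries, 127 reached 15 in both, and 806 had a mean of 12 or more. Keeping the excluded stretch of chromosome 6 gave 627, adding chromosomes X and Y gave 530 and scaling the libraries to the same median window gave 511. Windows at 2-fold or more over their surroundings numbered 204 with neighbours within 250 kb, where fewer windows had a level. They numbered 377 within 5 Mb, 295 over the mean of neighbours, 333 with overlapping windows kept and 355 with windows of the set left out of the neighbours. The 2 windows with PAF1 over PHF5A by 1.5-fold came to 0 with a pseudocount of 2, to 0 without scaling to the median window and to 0 at 2-fold. They came to 3 with no pseudocount. Of 255 recomputed values of named windows, 226 moved by less than 1.96 counting errors and 29 by more. That error belongs to the window's own counts, which the reported and recomputed values share. It gives a scale for the shifts and is no test of them. Joining windows up to 10 kb apart gave 485 regions. No paired analysis was possible because each antibody has 1 library and no test between groups was made. The signal has no replicate and no input value beside it, its scale is unknown, and reads of near-identical gene copies may be placed in several ways, so single copies are uncertain.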
